A study of Mus musculus with 6 samples.

Results

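Transcript levels of 10 costimulatory genes were read by RNA sequencing in 6 libraries made from innate lymphoid cells (ILCs) of the mouse lung. The genes were 7 receptors of the TNF receptor family (Tnfrsf4, Tnfrsf9, Tnfrsf18, Tnfrsf8, Tnfrsf25, Tnfrsf1b and Cd27), 1 ligand of that family (Tnfsf4) and 2 receptors of the CD28 family (Cd28 and Icos). They were chosen by family membership and found by their Ensembl identifiers, 10 of the 52636 genes in the count table. All 10 were among the 15197 genes that passed the filter on low counts. The design compared ILCs that carry the lectin-like receptor KLRG1 on their surface (KLRG1-positive, labelled ILC2, n = 3 libraries) with ILCs that do not (KLRG1-negative, n = 3 libraries). The labels' extraction protocol calls the positive sort KLRG1high. All mice in both groups were wild-type C57BL/6 animals with the 4get allele, in which the Il4 gene carries a reporter for green fluorescent protein. Recombinant interleukin-33, an alarmin that activates ILC2, had been injected intraperitoneally for 4 days (500 ng), and the animals were killed on day 5. The labels give no untreated group and no age. Cells lacking lineage markers and carrying CD90 were sorted, and it is not stated whether each library is a separate mouse. P-values therefore cover the spread between these libraries, which may be technical.

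Costimulatory TNF receptors are membrane proteins that bind trimeric ligands and recruit TRAF adaptors, which lead to NF-kappaB activity and to survival and cytokine production. CD28 and ICOS are receptors of the immunoglobulin superfamily that bind B7-type ligands on other cells and signal through phosphoinositide 3-kinase and related kinases. In T cells these receptors act beside the antigen receptor. ILC2 have no antigen receptor, and several of the same receptors, among them GITR (Tnfrsf18), DR3 (Tnfrsf25) and ICOS, are known to modulate their cytokine output together with interleukin-33 and interleukin-7.

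The libraries held 17323004 to 23946073 counts assigned to genes. Klrg1, the gene of the sort, had 13.1, 193 and 73.2 CPM (counts scaled to a common effective library size) in KLRG1-negative libraries 1, 2 and 3, and 1485, 1786 and 1327 CPM in KLRG1-positive libraries 1, 2 and 3. Thy1, which encodes CD90, stood at 25.9 to 53.1 and 16.3 to 34.9 CPM. The ILC2 marker list (10 genes, summed) ran from 1478 to 3667 CPM in KLRG1-negative and from 6551 to 7760 CPM in KLRG1-positive libraries. Transcripts of other cell types were also present, mainly in KLRG1-negative libraries. Summed fibroblast markers (6 genes, among them Col1a1 and Dcn) ran from 3849 to 10773 against 4.66 to 26.8 CPM, and summed B cell markers (6 genes) from 526 to 4192 against 121 to 350.4 CPM. Summed T cell markers (10 genes) ran from 1844 to 5915 against 1221 to 1564 CPM. Cd8a was at 193 to 674 against 3.47 to 42.1 CPM, and Cd4 at 0 to 1.17 CPM in all 6 libraries. The T cell sum in KLRG1-positive libraries came mostly from Trbc2, Trbc1 and Cd3g. In KLRG1-positive library 2 these stood at 755, 449.6 and 313 CPM of the 1564, and Cd3e at 8.81 CPM. Summed markers of natural killer cells and ILC1 (7 genes) ran from 131 to 435 against 28.8 to 194 CPM, with 6 negative and 1 positive fold change. All these transcripts stood in libraries whose label gives CD90-positive cells without lineage markers. In such bulk libraries, fewer cells of a type and less of an RNA per cell cannot be told apart.

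Of the 10 genes, Cd28 fell in KLRG1-positive cells and none rose at an adjusted p of 0.05 (edgeR's quasi-likelihood test, Benjamini-Hochberg over all tested genes). Over all tested genes, 0.125% were called higher and 1.21% lower. The members' fold changes were positive for 8 and negative for 2 genes, with a median log2 fold change of 0.81, against -0.05 over all tested genes. At an unadjusted p of 0.05, 2 members were higher (Tnfrsf8 and Tnfrsf25) and 1 was lower (Cd28), where 4.19% of all genes were higher and 11.5% lower. The groups did not overlap for 1 member with higher levels (Tnfrsf25, background 9.46%) and 1 with lower levels (Cd28, background 15.2%). In all 3 pairs of libraries with the same number, 4 members were higher in the KLRG1-positive library (Tnfrsf4, Tnfrsf18, Tnfrsf8 and Tnfrsf25, background 21.7%) and 2 were lower (Cd27 and Cd28, background 25.1%). In the same test Klrg1 itself, with a log2 fold change of 4.04, had an adjusted p of 0.0939.

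**Figure D1:**
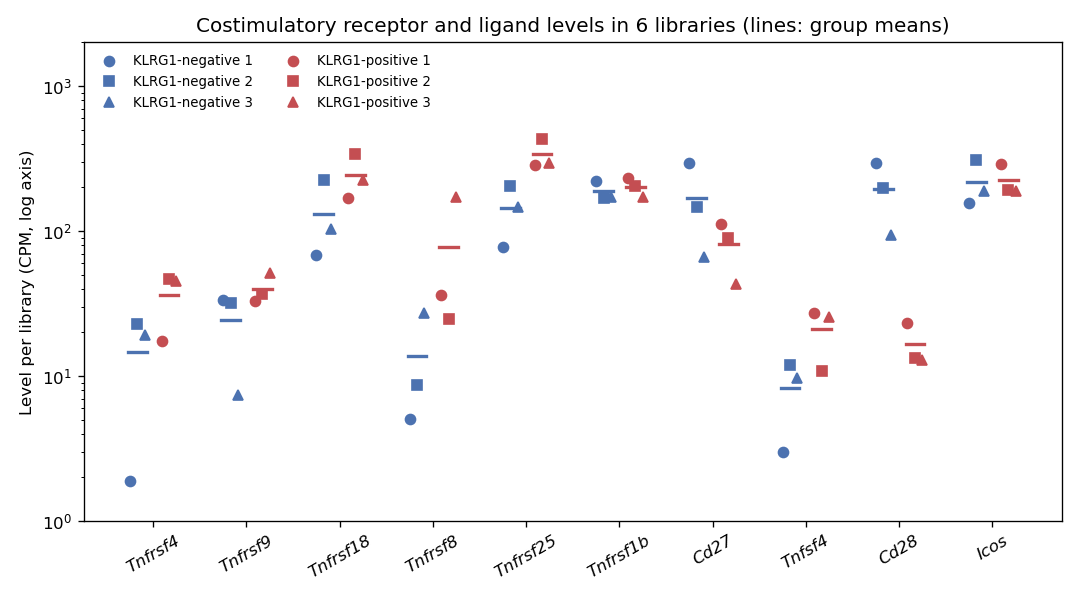
Level of each of the 10 genes in each library (vertical axis, CPM, log scale). Blue marks are KLRG1-negative and red marks KLRG1-positive libraries, the shape gives the library number and the lines are group means. Cd28 is the gene with all red marks (13.0 to 23.3 CPM) below all blue marks (93.6 to 297 CPM), and Tnfrsf25 the gene with all red marks (287 to 432 CPM) above all blue marks (77.7 to 206 CPM).

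Other tests gave other calls. With the number as a replicate block, edgeR called 0 members in either direction, where 0.349% of all genes were called lower and 0.0% higher. DESeq2 without the block called 1 member lower (Cd28) and 0 higher, where 8.79% of its tested genes were lower and 1.91% higher. DESeq2 with the block, a fit added after the data were seen, called 4 members higher (Tnfrsf4, Tnfrsf18, Tnfrsf8 and Tnfrsf25) and 2 lower (Cd27 and Cd28). In that fit 3.61% of all genes were higher and 11.2% lower.

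Sequences are shown for the 3 receptors that were higher in every same-numbered pair and whose RefSeq upstream window lies wholly outside the gene model that was counted. RefSeq promoters (GRCm38.p6) were found for 7 of the 10 members, with Cd28, Icos and Tnfsf4 not matched. Of the 2 entries for Tnfrsf25 the upstream one is shown. Each line gives the 250 bases before the annotated start, on the strand of the gene, in lower case with motif matches in capitals. The 4 motifs searched on both strands were GATAA (the GATA core, present in 22.6% of the 32851 RefSeq promoter windows of this length), TGANTCA (the AP-1 site, 6.75%), AGGTCA (the core of the ROR element, 14.0%) and the NF-kappaB consensus (5.93%).
Tnfrsf25, chr4:152115684-152115933, plus strand: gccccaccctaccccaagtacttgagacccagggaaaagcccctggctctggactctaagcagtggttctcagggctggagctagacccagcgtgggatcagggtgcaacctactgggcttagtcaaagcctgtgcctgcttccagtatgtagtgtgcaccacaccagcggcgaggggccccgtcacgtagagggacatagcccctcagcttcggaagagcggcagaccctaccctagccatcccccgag
Tnfrsf8, chr4:145315165-145315414, minus strand: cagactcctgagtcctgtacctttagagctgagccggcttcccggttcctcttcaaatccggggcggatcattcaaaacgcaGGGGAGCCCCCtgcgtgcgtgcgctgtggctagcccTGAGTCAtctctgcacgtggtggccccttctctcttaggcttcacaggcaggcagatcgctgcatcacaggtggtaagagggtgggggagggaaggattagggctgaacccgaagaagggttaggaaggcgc
Tnfrsf4, chr4:156013445-156013694, plus strand: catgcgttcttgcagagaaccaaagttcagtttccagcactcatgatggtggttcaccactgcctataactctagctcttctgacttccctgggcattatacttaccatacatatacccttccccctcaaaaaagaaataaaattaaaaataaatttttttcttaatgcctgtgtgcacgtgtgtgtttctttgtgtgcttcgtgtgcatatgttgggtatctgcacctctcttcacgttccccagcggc
The Tnfrsf8 window held 1 AP-1 match, 126 to 132 bases before the start, and NF-kappaB matches that overlap each other, 158 to 168 bases before it. The windows shown for Tnfrsf25 and Tnfrsf4 held none of the 4 motifs. The other Tnfrsf25 entry, not shown because it lies inside the counted gene, held an NF-kappaB match 19 to 28 bases before its start and an AGGTCA match on the opposite strand 182 to 187 bases before it. A window of Tnfrsf9, not shown and also inside the counted gene, held GATAA, AP-1 and NF-kappaB matches. Tnfrsf9 was not higher in every same-numbered pair. The windows of Tnfrsf1b, Tnfrsf18 and Cd27 held none of the 4 motifs. GC content was 61.6% for Tnfrsf25, 60.0% for Tnfrsf8 and 42.8% for Tnfrsf4. A match is a description of letters only, and binding was not measured here.

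Tnfrsf25 encodes DR3, the receptor for the cytokine TL1A, which is a known activator of ILC2 (GRCm38 chr4:152115934-152120119). It stood at 77.7, 206 and 146 CPM in KLRG1-negative libraries 1, 2 and 3 and at 287, 432 and 294 CPM in KLRG1-positive libraries 1, 2 and 3. Every KLRG1-positive library was above every KLRG1-negative one, with library 1 the lowest of both groups. The log2 fold change was 1.24 ± 0.39 (SE, n = 3 against 3, edgeR adjusted p = 0.186, 95% interval 0.30 to 2.17), and the same-numbered libraries differed 3.70-fold, 2.10-fold and 2.01-fold. DESeq2 with the block gave an adjusted p of 0.000126.

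Tnfrsf18 encodes GITR, a receptor known from regulatory T cells and from ILC2 (chr4:156026164-156028895). It stood at 67.9, 225 and 103 CPM in KLRG1-negative and at 168, 339 and 226 CPM in KLRG1-positive libraries. The groups overlapped, because KLRG1-negative library 2 was above KLRG1-positive library 1, but each KLRG1-positive library was above the one of its own number (2.47-fold, 1.51-fold and 2.19-fold). Its log2 fold change was 0.89 ± 0.50 (SE, edgeR adjusted p = 0.482, DESeq2 with the block 0.00189), and it was 0.58 without KLRG1-negative library 1 and 1.63 without KLRG1-negative library 2. Of the counted exon bases of Tnfrsf18, 27.2% are shared with the antisense gene Gm16008. Reads were counted without strand and ambiguous reads left out, so reads from that stretch are missing from both genes, and Gm16008 itself had 0.946 to 10.1 CPM.

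Tnfrsf4 encodes OX40 and lies 9.55 kb upstream of Tnfrsf18 on the same strand (chr4:156013843-156016612). It stood at 1.89, 22.7 and 19.1 CPM in KLRG1-negative and at 17.6, 46.8 and 45.1 CPM in KLRG1-positive libraries. Library 1 was the lowest of each group, and only that KLRG1-positive library fell inside the KLRG1-negative range. For Tnfrsf4 the log2 fold change was 1.32 ± 0.88 (SE, edgeR adjusted p = 0.569, DESeq2 with the block 0.00919), with same-numbered differences of 9.29-fold, 2.06-fold and 2.36-fold. Without KLRG1-negative library 1 it was 0.81. Over the 6 libraries the root mean square difference between the centred log2 levels of Tnfrsf4 and Tnfrsf18 was 0.84, with both lowest in library 1 of each group and with the wider range in Tnfrsf4. Tnfrsf18 was number 212 among 10284 genes in likeness to Tnfrsf4, while Tnfrsf4 was number 4078 in likeness to Tnfrsf18. The more distant Tnfrsf25 was nearer in profile to Tnfrsf4 (number 163, difference 0.80). Between Tnfrsf18 and Tnfrsf25, which lie 3.91 Mb apart, the difference was 0.28.

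Tnfsf4, the gene of the OX40 ligand and the only ligand among the members (chr1:161395409-161418410), stood at 3.00, 11.99 and 9.71 CPM in KLRG1-negative and at 27.0, 10.8 and 25.7 CPM in KLRG1-positive libraries. OX40 ligand on ILC2 is known to costimulate T cells. KLRG1-positive libraries 1 and 3 were above all KLRG1-negative ones and library 2 was not. The log2 fold change was 1.36 ± 0.63 (SE, edgeR adjusted p = 0.376, DESeq2 with the block 0.161), and it was 0.75 without both libraries numbered 1 and 2.18 without both numbered 2. Receptor and ligand were thus detected in the same libraries in all 6 cases, the lowest values of both being in KLRG1-negative library 1.

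Tnfrsf8 encodes CD30, a receptor found on activated lymphocytes (chr4:145267137-145315164). It stood at 5.06, 8.71 and 27.3 CPM in KLRG1-negative and at 36.1, 24.8 and 171 CPM in KLRG1-positive libraries. Library 3 was the highest of each group, and KLRG1-positive library 2 lay just under KLRG1-negative library 3. Its log2 fold change of 2.50 ± 0.98 was the highest among the members and also had the largest error (SE, edgeR adjusted p = 0.292, DESeq2 0.0539, DESeq2 with the block 1.1e-07), with a 95% interval of 0.13 to 4.87. Same-numbered libraries differed 7.13-fold, 2.84-fold and 6.27-fold, and without KLRG1-positive library 3 the log2 fold change was 1.31. The gene whose profile was nearest to that of Tnfrsf8 was Il2ra, the alpha chain of the interleukin-2 receptor, at 73.9, 80.4 and 153 against 363, 239 and 615 CPM (root mean square difference 0.63).

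Tnfrsf9, the gene of 4-1BB (chr4:150914562-150946102), stood at 33.7, 31.9 and 7.35 CPM in KLRG1-negative and at 32.7, 36.7 and 51.1 CPM in KLRG1-positive libraries. KLRG1-negative library 3 stood apart from the other 5, which covered 31.9 to 51.1 CPM. The log2 fold change was 0.73 ± 0.58 (SE, edgeR adjusted p = 0.652), and without KLRG1-negative library 3 it was 0.31. Tnfrsf1b, the gene of TNFR2 (chr4:145213463-145246870, 20.3 kb from Tnfrsf8), stood at 222, 168 and 172 CPM in KLRG1-negative and at 231, 204 and 172 CPM in KLRG1-positive libraries. Relative to its mean, it had the smallest SD of the 10 genes in both groups. Its log2 fold change was 0.11 ± 0.20 (SE, edgeR adjusted p = 0.885), with a 95% interval of -0.38 to 0.59.

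Cd27, the receptor for CD70 and a known marker of naive and memory T cells (chr6:125232622-125237010), stood at 293, 146 and 66.6 CPM in KLRG1-negative and at 111, 90.3 and 42.8 CPM in KLRG1-positive libraries. The groups overlapped, and library 1 was the highest and library 3 the lowest of each. Every KLRG1-positive library was below the one of its own number (ratios of 0.380, 0.619 and 0.644). This gave a log2 fold change of -1.05 ± 0.60 (SE, edgeR adjusted p = 0.494, DESeq2 with the block 0.0157), which was -0.37 without KLRG1-negative library 1 and -0.64 without KLRG1-positive library 3. The T cell markers summed to 5915, 3133 and 1844 CPM in KLRG1-negative libraries 1, 2 and 3. In KLRG1-positive libraries 1, 2 and 3 they summed to 1221, 1564 and 1279 CPM, mostly from Trbc2, Trbc1 and Cd3g. The order of that sum differs from that of Cd27, but single markers varied. In these libraries Trac stood at 59.3, 20.7 and 20.3 CPM, in the order of Cd27. Cd3e, at 39.0, 8.81 and 12.5 CPM, was also highest in library 1, and Trbc1, at 281, 449.6 and 328 CPM, was lowest there. The part of T cells in the Cd27 levels was not tested.

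Cd28, the main costimulatory receptor of T cells, for the B7 ligands CD80 and CD86 (chr1:60716800-60773359), stood at 297, 199 and 93.6 CPM in KLRG1-negative and at 23.3, 13.3 and 13.0 CPM in KLRG1-positive libraries. Every KLRG1-positive library was below every KLRG1-negative one, with means of 196 ± 102 and 16.5 ± 5.87 CPM (SD, n = 3 each), an 11.9-fold difference. On the log2 scale the fold change was -3.57 ± 0.51 (SE, edgeR adjusted p = 0.0430, 95% interval -4.81 to -2.33). With the replicate block it was -3.47 ± 0.29 with an adjusted p of 0.0526, which is no longer past the threshold. Leaving out any 1 of the 6 libraries kept the log2 fold change between -3.89 and -3.13, but the adjusted p ran from 0.0576 to 0.184. DESeq2 gave 3.3e-09.

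Most T cell markers also had lower values. All 9 tested markers of that list had negative fold changes. In edgeR 0 of them passed the threshold, 6 had an unadjusted p under 0.05 and 4 passed with the replicate block, and DESeq2 called 6. Over all tested genes, 11.5% were lower at an unadjusted p of 0.05 in edgeR, 0.349% with the block and 8.79% in DESeq2. Cd3e stood at 798.5, 239 and 149 CPM in KLRG1-negative and at 39.0, 8.81 and 12.5 CPM in KLRG1-positive libraries. The constant region genes of the T cell receptor beta chain had smaller differences: Trbc1 stood at 508, 449 and 259 against 281, 449.6 and 328 CPM (log2 fold change -0.20 ± 0.31, edgeR adjusted p = 0.852), and Trbc2 at 1338, 981 and 539 against 599, 755 and 649.8 CPM (-0.51 ± 0.34, adjusted p = 0.566). Both had overlapping groups. Measured within each library against the mean log2 level of Cd3e, Cd3d, Cd3g and Trac (log2 of CPM + 0.5), Cd28 was at -0.89 ± 0.40 in KLRG1-negative and at -0.92 ± 0.17 in KLRG1-positive cells (SD, n = 3 each, exact permutation p = 0.9, adjusted p = 0.9 over 3 genes, smallest possible p 0.1). The difference was thus -0.03 on that scale, where the mean level of the 4 reference genes itself differed by -3.40. The edgeR log2 fold change of Cd28 without the reference, a different measure, was -3.57. Of the 4 reference genes Cd3g differed least, at 740, 368 and 261 against 148, 313 and 249 CPM. The Cd28 difference depended on the reference genes, in 2 alternatives added after the data were seen. Without Cd3g it was 0.82 (exact p = 0.2), with differences of 0.71, 0.88 and 0.85 in same-numbered libraries 1, 2 and 3, and an exact test of 3 pairs cannot give a p under 0.25. With Trbc1 and Trbc2 added it was -1.06, lower in every KLRG1-positive library (exact p = 0.1).

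Icos, the inducible costimulator, lies 205 kb from Cd28 (chr1:60977927-61000320), but its levels did not follow those of Cd28. It stood at 157, 308 and 190.4 CPM in KLRG1-negative and at 290.3, 193 and 190.4 CPM in KLRG1-positive libraries. The KLRG1-positive range lay inside the KLRG1-negative one, and library 1 was the lowest of the KLRG1-negative and the highest of the KLRG1-positive libraries. The log2 fold change was 0.04 ± 0.32 (SE, edgeR adjusted p = 0.978), with a 95% interval of -0.73 to 0.81, and its sign changed when single libraries were left out (range -0.17 to 0.49). Against the T cell reference genes, Icos stood at -0.64 ± 1.37 in KLRG1-negative and at 2.83 ± 0.29 in KLRG1-positive libraries, and Cd27 at -1.21 ± 0.21 and 1.29 ± 0.59 (SD, n = 3). The groups did not overlap for either gene, and both differences had the smallest exact p that 3 against 3 allows, 0.1 (adjusted p = 0.15 over 3 genes). Relative to the 4 T cell genes, Icos and Cd27 were thus higher in every KLRG1-positive library. This also held without Cd3g (4.32 and 3.34) and with Trbc1 and Trbc2 added (2.44 and 1.46). The mean level of the 4 genes itself differed by -3.40, so a gene with equal levels in both sorts also comes out higher on this scale. Without a reference the log2 fold change was 0.04 for Icos and -1.05 for Cd27. The Cd28 values overlapped with the 4 genes and without Cd3g.

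**Figure D2:**
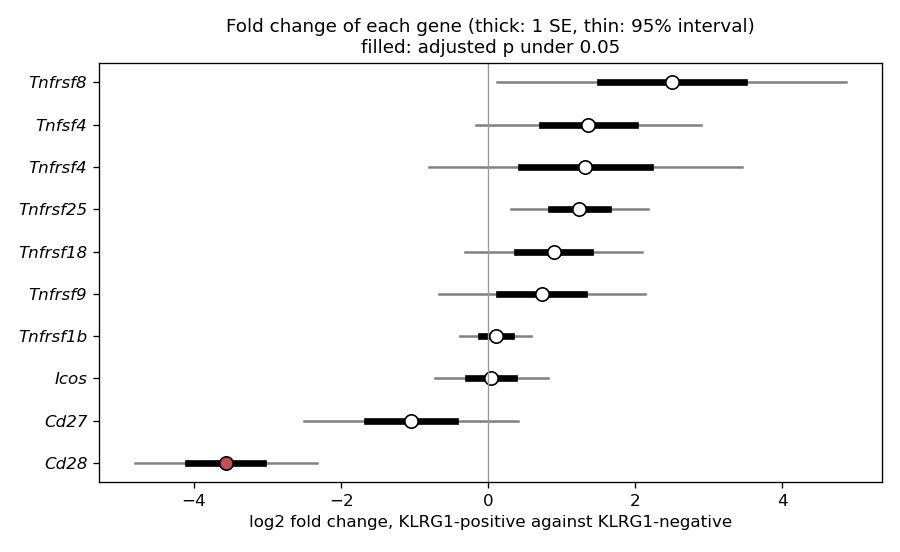
Fold change of each gene between the sorts (horizontal axis, log2, positive values higher in KLRG1-positive cells; point, edgeR estimate; thick bar, 1 SE; thin bar, 95% interval). Cd28 at -3.57 is the 1 gene past an adjusted p of 0.05, the intervals of Tnfrsf8 and Tnfrsf25 also leave out 0 without adjustment, and those of Icos and Tnfrsf1b are centred near 0.

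ILC2 transcripts also had higher values in KLRG1-positive libraries, with positive fold changes for all 10 markers of that list. In edgeR 0 of them passed the threshold, 3 had an unadjusted p under 0.05 and 0 passed with the replicate block, and DESeq2 called 3. Over all tested genes, 4.19% were higher at an unadjusted p of 0.05 in edgeR, 0.0% with the block and 1.91% in DESeq2. The mean log2 level of 5 ILC2 reference genes (Gata3, Rora, Il1rl1, Il7r and Il2ra) was 8.05 in KLRG1-negative and 9.49 in KLRG1-positive libraries, a difference of 1.44. Measured against these genes within each library, Tnfrsf25 stood at -0.99 ± 0.17 and -1.11 ± 0.28 (SD, n = 3 each), a difference of -0.12 (exact permutation p = 0.4). The Tnfrsf25 ratio had the narrowest overall range of the 10 genes. Tnfrsf18 stood at -1.18 ± 0.47 and -1.61 ± 0.51, a difference of -0.43 (exact p = 0.5). The difference was -0.04 for Tnfsf4, 0.28 for Tnfrsf4, -0.48 for Tnfrsf9 and 0.83 for Tnfrsf8 (exact p = 0.6), all with overlapping groups. Within same-numbered libraries 1, 2 and 3 the Tnfrsf8 ratio differed by 0.53, 0.35 and 1.60. Icos was lower on this scale in every KLRG1-positive library, at -0.33 ± 0.33 against -1.70 ± 0.30, a difference of -1.37. Tnfrsf1b (-1.33), Cd27 (-2.34) and Cd28 (-4.87) were lower without overlap as well. These 4 had an exact p of 0.1, the smallest possible, and an adjusted p of 0.25 over the 10 genes. Since the reference itself differed by 1.44, a gene with equal levels in both sorts also comes out lower on this scale. With Ptprc, the gene of the leukocyte marker CD45, as the reference instead, Tnfrsf25 differed by 1.39, Tnfrsf18 by 1.08 and Icos by 0.15.

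**Figure D3:**
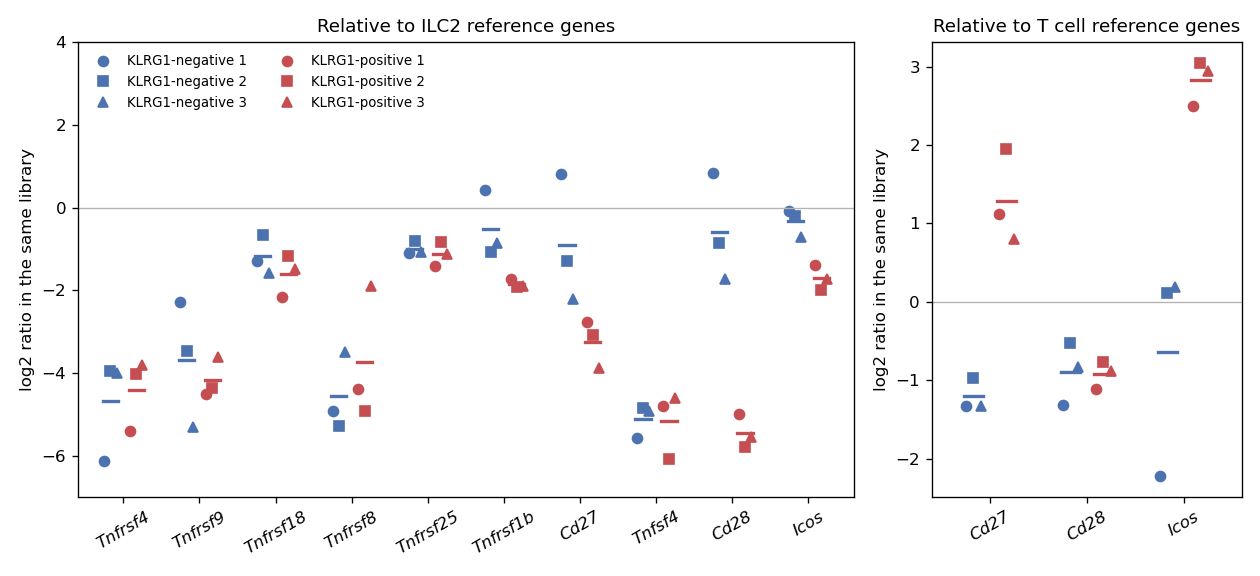
Level of each gene relative to 5 ILC2 reference genes (left) and of Cd27, Cd28 and Icos relative to 4 T cell reference genes (right) in the same library (vertical axis, log2 ratio; marks and lines as in the plot of levels). Tnfrsf25 keeps nearly the same ratio to ILC2 genes in all 6 libraries, and the Cd28 ratios to these 4 T cell genes overlap between the sorts. Icos separates the sorts in both panels in opposite directions, where the reference genes themselves differ by 1.44 (left) and -3.40 (right).

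Per gene length (RPKM, the CPM divided by the gene length in kilobases), the order of the members differed between the sorts. Tnfrsf18 was first in both, at 86.6 ± 54.2 RPKM in KLRG1-negative and 160.4 ± 57.2 RPKM in KLRG1-positive cells (SD, n = 3). In KLRG1-negative cells it was followed by Cd27 (72.3 ± 49.3), Icos (63.7 ± 23.2), Tnfrsf25 (62.9 ± 28.1), Tnfrsf1b (49.2 ± 7.85) and Cd28 (32.1 ± 16.6 RPKM). Tnfrsf4 (10.7), Tnfrsf9 (8.93), Tnfsf4 (4.47) and Tnfrsf8 (3.96 RPKM) came last. Of the 9 pairs of neighbours in this order, 0 had ranges that did not overlap. In KLRG1-positive cells Tnfrsf25 was the second (148 ± 35.9 RPKM), then Icos (65.5 ± 16.6), Tnfrsf1b (52.9 ± 7.74), Cd27 (35.0 ± 15.0), Tnfrsf4 (26.7), Tnfrsf8 (22.4), Tnfrsf9 (14.8) and Tnfsf4 (11.5), with Cd28 last (2.70 ± 0.96). Here 2 of the 9 neighbouring pairs had separate ranges, Tnfrsf25 over Icos and Tnfsf4 over Cd28. As shares of the summed RPKM of the 10 genes, Tnfrsf25 made up 16.0 ± 6.14% and 27.2 ± 2.81%, Tnfrsf18 21.1 ± 8.72% and 29.1 ± 6.44%, Cd27 18.5 ± 13.2% and 6.56 ± 3.17%, and Cd28 8.13 ± 4.25% and 0.517 ± 0.237%.

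The ligands of these receptors were measured in the same libraries. Of 10 ligand genes other than Tnfsf4, 8 passed the filter, with a median log2 fold change of -0.59 against -0.05 over all genes. In edgeR 0 rose and 1 fell, where 0.125% of all tested genes were called higher and 1.21% lower. At an unadjusted p of 0.05, 1 was higher (Tnfsf9), where 4.19% of all tested genes were. DESeq2 called 0 higher, where 1.91% of its tested genes were. The gene that fell was Cd86, a B7 ligand of CD28, at 23.4, 26.0 and 26.0 CPM in KLRG1-negative and 1.13, 1.98 and 3.91 CPM in KLRG1-positive libraries. Its log2 fold change was -3.42 ± 0.54 (SE, edgeR adjusted p = 0.0484, with the replicate block 0.0795). B cell markers were also lower in each KLRG1-positive library than in each KLRG1-negative one (6 of 6 genes, background 15.2%). In edgeR 0 of these 6 passed the threshold, 6 had an unadjusted p under 0.05 and 4 passed with the replicate block, and DESeq2 called 4. Over all tested genes, 11.5% were lower at an unadjusted p of 0.05 in edgeR, 0.349% with the block and 8.79% in DESeq2. The B cell markers summed to 526, 644 and 4192 CPM in the KLRG1-negative libraries. Myeloid markers, summed over 6 genes, ran from 63.8 to 365 and from 46.5 to 297 CPM, and the part of either cell type in the Cd86 result was not tested.

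The ligands of Tnfrsf18 and Tnfrsf25 had low levels. Tnfsf18, the GITR ligand, had 22, 43 and 0 counts in KLRG1-negative and 1, 5 and 3 counts in KLRG1-positive libraries, and averaged 0.471 RPKM in KLRG1-negative and 0.0737 RPKM in KLRG1-positive cells. Tnfsf15, which encodes TL1A, had 0 counts in 5 of the 6 libraries and 14 counts in KLRG1-positive library 2. A count of 0 allows up to 3 counts, or 0.118 to 0.169 CPM depending on the library, for counting error only. In contrast Icosl, the ICOS ligand, was of the same order as its receptor, at 32.9, 234 and 141 CPM in KLRG1-negative and 279, 309 and 182 CPM in KLRG1-positive libraries (log2 fold change 0.92 ± 0.66, edgeR adjusted p = 0.606). Its mean level per length was 29.4 and 55.6 RPKM, beside 63.7 and 65.5 RPKM for Icos. Tnfsf9, the 4-1BB ligand, had groups that did not overlap (background 9.46%). It stood at 7.12, 6.82 and 13.1 against 14.6, 20.2 and 19.5 CPM (log2 fold change 1.00 ± 0.40, edgeR adjusted p = 0.300). Cd70, the CD27 ligand, averaged 1.62 and 3.22 RPKM, also with groups that did not overlap (edgeR adjusted p = 0.602).

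**Figure D4:**
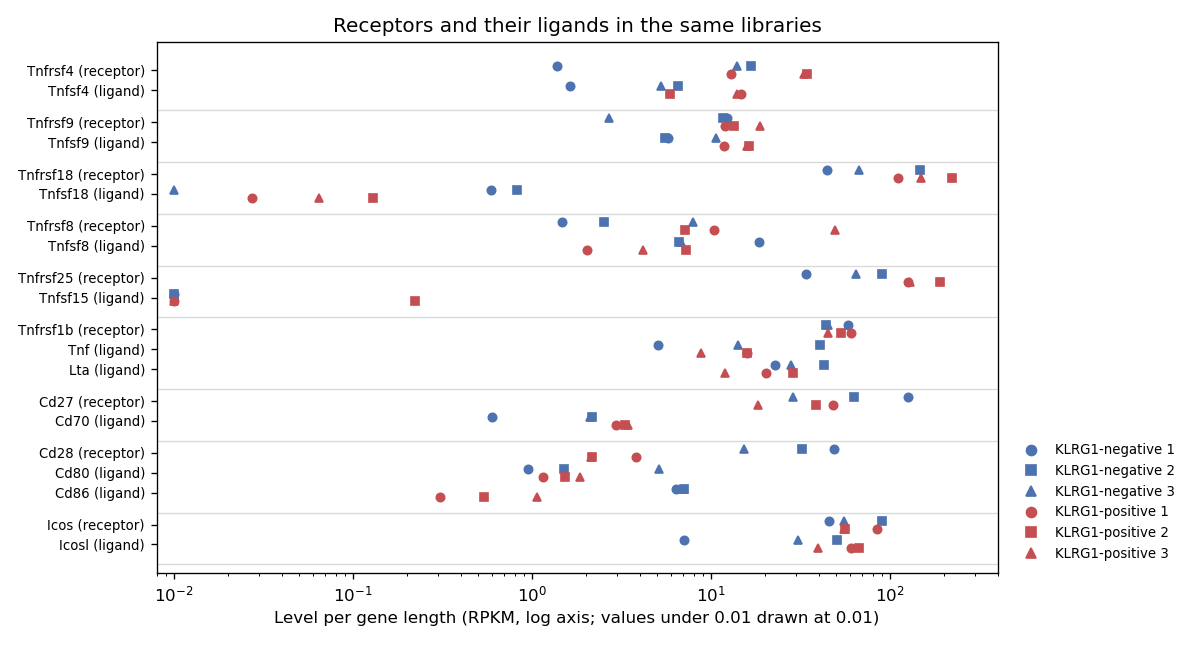
Level per gene length of each receptor and its ligands in each library (horizontal axis, RPKM, log scale; colours and shapes as in the plot of levels; values under 0.01 are drawn at 0.01). Icos and Icosl overlap in range, while Tnfsf18 and Tnfsf15 lie far below Tnfrsf18 and Tnfrsf25 in all 6 libraries.

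Most other TNF receptors had lower values in KLRG1-positive cells, though 0 passed the test. Of 21 other receptors 19 were tested, 17 with a negative and 2 with a positive log2 fold change, with a median of -1.51. At an unadjusted p of 0.05, 10 of them were lower and 0 higher in edgeR, where 11.5% of all tested genes were lower and 4.19% higher. DESeq2 called 6 of these receptors lower, where 8.79% of its tested genes were lower. The 2 with the highest mean level were Tnfrsf13b (TACI, found on B cells), at 91.7, 81.7 and 196 against 35.1, 44.6 and 69.1 CPM (edgeR adjusted p = 0.213), and Tnfrsf26, at 137, 104 and 55.7 against 57.0, 58.8 and 47.5 CPM (adjusted p = 0.306). B cell and fibroblast markers were lower in the same KLRG1-positive libraries, and their part in these values was not tested. The difference between members and other receptors was not tested, since the members were chosen with earlier results known.

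Among the inhibitory members of the CD28 family, 0 of 3 tested genes passed in edgeR. Of these 1 (Btla) was lower at an unadjusted p of 0.05, and DESeq2 called that 1 lower. The shares over all tested genes were 11.5% and 8.79%. Pdcd1, which encodes PD-1, stood at 84.8, 401 and 214 CPM in KLRG1-negative and 316, 595 and 407 CPM in KLRG1-positive libraries, higher in each same-numbered pair (log2 fold change 0.91 ± 0.56, edgeR adjusted p = 0.529). Ctla4 stood at 22.8, 114 and 87.2 against 20.4, 155 and 207 CPM, with library 1 the lowest of each group (adjusted p = 0.787). Foxp3 is the defining gene of regulatory T cells, in which Ctla4, GITR and OX40 are also high. It was at 0 to 3.84 CPM in KLRG1-negative and at 0 to 1.44 CPM in KLRG1-positive libraries, with 0 counts in 3 of the 6. Of the other regulatory T cell markers, Ikzf2 stood at 24.4, 26.5 and 15.5 against 26.0, 26.2 and 18.2 CPM. Ikzf4 stood at 6.84, 13.0 and 9.27 against 5.63, 6.14 and 5.46 CPM. Lrrc32 stood at 13.2, 5.13 and 8.12 against 2.08, 0.0534 and 0.621 CPM. The part of such cells in the member levels was not tested.

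Downstream of the receptors, 0 of 13 TRAF adaptors and regulators passed the test, with 7 positive and 6 negative fold changes and a median of 0.02. At an unadjusted p of 0.05, 1 was higher (Traf2) and 1 lower (Traf5) in edgeR, and DESeq2 called 1 lower. Tnfaip3, the gene of the NF-kappaB inhibitor A20, stood at 288, 1791 and 1494 against 285, 3509 and 1860.5 CPM (log2 fold change 0.66 ± 0.97, edgeR adjusted p = 0.840). Traf1 had 332, 353 and 239.6 against 275, 409.6 and 255 CPM (log2 fold change 0.02 ± 0.26, adjusted p = 0.985). Of 8 NF-kappaB subunits and inhibitors 0 passed in edgeR, with a median of 0.29, and at an unadjusted p of 0.05 1 was higher (Nfkb1) and 1 lower (Rel), which DESeq2 also called. Nfkb1, the p105 and p50 subunit, stood at 103, 431 and 327 against 717, 938 and 882 CPM without overlap (log2 fold change 1.56 ± 0.50, edgeR adjusted p = 0.203), and Nfkbia at 259, 855 and 644 against 495, 1575 and 1097 CPM (adjusted p = 0.568). Of 13 genes of CD28 and ICOS signalling 0 passed, with 3 positive and 10 negative fold changes and a median of -0.24. Of these, edgeR gave 3 lower and 0 higher genes at an unadjusted p of 0.05, and DESeq2 called 2 lower. Over all tested genes, edgeR gave 11.5% lower and 4.19% higher at that p. DESeq2 called 8.79% lower and 1.91% higher. Lck, the T cell kinase next to CD28, stood at 1987, 1029 and 581 against 308, 199 and 223 CPM (log2 fold change -2.30 ± 0.48, adjusted p = 0.0768).

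The genes with the most similar profiles over the 6 libraries were sought among 10284 protein-coding genes, by the root mean square difference of centred log2 levels. For Tnfrsf4 they were Rgs1 (0.18), Ccr8 (0.29) and Bhlhe40 (0.32). Rgs1, a regulator of chemokine receptor signalling, ran from 104 CPM in KLRG1-negative library 1 to 1916 CPM in KLRG1-positive library 3. For Tnfrsf18 they were Jdp2 (0.13), Kctd17 (0.16) and Padi2 (0.20), and for Tnfrsf25 Krt80 (0.07), Zcchc10 (0.13) and again Kctd17 (0.13). For Cd28 they were Art4 (0.22), Tbx21 (0.27) and Sulf2 (0.29), and Tbx21, the T-bet gene, stood at 131, 74.6 and 52.6 against 15.9, 6.68 and 6.75 CPM. For Cd27 they were Usp53 (0.22), Armc7 (0.23) and Fam189b (0.27), for Tnfsf4 Tmem231 (0.28), Tmem237 (0.36) and Fgl2 (0.37), and for Tnfrsf8, after Il2ra, Gins2 (0.68) and Slc16a3 (0.69). Those of Icos (Adal, Acp2 and Blcap), Tnfrsf9 (Atxn7, Fam193a and Otud4) and Tnfrsf1b (Arhgap30, Tubgcp4 and Snx4) lay at 0.05 to 0.29.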

How the data were processed

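RNA was sequenced from 6 libraries of sorted lung ILCs, 3 per group. Per the labels' protocols, cDNA was made and amplified with the SMARTer v4 low-input kit, libraries were built with Nextera XT, which does not mark strand, and sequenced on a HiSeq instrument. The deposited values are raw counts of reads per gene that the authors made with featureCounts 1.5.2 on Ensembl release 90 models of GRCm38, without strand and without multi-mapping or ambiguous reads, per the file headers. Alignment with STAR 2.4.1d, the use of Subread 1.5.2 and of bcl2fastq are listed in the submitters' processing notes. Of the alignments in a library, 60.0 to 63.1% were assigned, 26.3 to 32.3% were multi-mapping and 2.49 to 2.81% ambiguous.

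The deposited counts were tested with edgeR 4.0.16 in R 4.3.3 (quasi-likelihood F test, robust dispersion, TMM factors, filterByExpr, two-sided, Benjamini-Hochberg over 15197 genes, threshold 0.05). The biological coefficient of variation was 0.631. DESeq2 1.42.0 was an alternative. The scripts were tested on simulated data. CPM and RPKM use TMM-scaled library sizes, RPKM also the gene length in the deposited table. Ratios to reference genes used log2 of CPM + 0.5 and exact two-sided permutation tests over the 6 libraries. Positions are those of the deposited table, and symbols are from GENCODE, in which 52489 of the 52636 identifiers were found. Sequences are RefSeq's (GRCm38.p6).

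The 10 members, the gene lists and the tests were chosen with earlier results of these data known. Named genes are the members, list genes past the threshold, otherwise the 2 most abundant of a list, and the 3 genes nearest to each member in profile among those with a mean of at least 5 CPM. Some results under this naming are not given in the text. Any other gene was named after its values were seen. Whether the numbers in the labels pair the libraries was checked: across genes, deviations from the group mean correlated between libraries 1, 2 and 3 of the sorts at 0.382, 0.338 and 0.188, and 6 of 6 libraries correlated best with their own number. The numbers were therefore read as pairing the libraries, a reading that comes from the data. The main edgeR fit, DESeq2 without the block and the exact permutation tests did not use this pairing. It entered the fits with the replicate block and the comparisons of same-numbered libraries.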

Additional observations from a re-analysis of the deposited data

How the results depend on the processing

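The test over all genes called 19 higher and 184 lower. These counts were 0 and 53 with the replicate block, 350 and 1609 with DESeq2, 594 and 1842 with DESeq2 and the replicate block, and 37 and 282 without the filter on low counts. Leaving out 1 library gave 0 to 5 higher and 0 to 159 lower genes, and leaving out both libraries numbered 1, 2 or 3 gave 3, 0 and 0 higher and 168, 0 and 0 lower genes. Of the members, 0 were lower (Cd28 missed the threshold) with the replicate block, without any 1 library and without both libraries of any number, and DESeq2 with the replicate block called 4 higher and 2 lower. The other alternatives (another count filter, another scaling, no robust dispersion) left the Cd28 call in place. No other call of a member in edgeR changed with the block.

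Of 170 alternative log2 fold changes of members 4 reversed, all of Icos: -0.14 without KLRG1-negative library 1, -0.04 without KLRG1-negative library 3, -0.17 without KLRG1-positive library 1 and -0.38 when the pair numbered 1 was left out. The lowest and highest with 1 library left out were -0.17 and 0.49.

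Of 90 alternative ratios to ILC2 genes 15 reversed. With Ptprc as the reference the difference was 1.03 for Tnfrsf9, 1.08 for Tnfrsf18, 1.39 for Tnfrsf25, 0.18 for Tnfrsf1b, 1.47 for Tnfsf4 and 0.15 for Icos, and with a pseudocount of 0.1 CPM it was 0.018 for Tnfsf4. With 1 library left out the difference crossed 0 for Tnfrsf4 (-0.44 to 0.77), Tnfrsf9 (-1.29 to 0.22), Tnfrsf8 (-0.095 to 1.43), Tnfrsf25 (-0.26 to 0.021) and Tnfsf4 (-0.32 to 0.42). Of 27 alternative ratios to T cell genes 3 reversed, all of Cd28. They were 0.82 without Cd3g, 0.16 without KLRG1-negative library 2 and 0.068 without KLRG1-positive library 1. With Trbc1 and Trbc2 added the Cd28 difference moved to -1.06 and kept its sign. With 1 library left out it ran from -0.24 to 0.16. The cause of these changes was not tested. With 3 libraries per group no exact permutation p can be under 0.1.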

Other observations

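Library 1 of each sort shared some features. Of the 10 members, 3 were lowest in library 1 of both groups (Tnfrsf4, Tnfrsf18 and Tnfrsf25), as were 17.6% of all 15197 tested genes, and 3 were highest there (Tnfrsf1b, Cd27 and Cd28), as were 16.6%. The margins were small in places, since KLRG1-positive libraries 1 and 3 had 287 and 294 CPM of Tnfrsf25. Genes of the NF-kappaB pathway, named here after their values were seen, varied in this respect. Tnfaip3 was at 288 CPM in KLRG1-negative library 1 and 285 CPM in KLRG1-positive library 1, against 1494 to 3509 CPM in the other 4 libraries, and Relb was at 34.4 and 25.8 CPM, against 88.0 to 151 CPM. Nfkb2, Birc3 and Traf1 did not have this pattern: in KLRG1-positive libraries 1 and 3 Nfkb2 had 282 and 243 CPM and Birc3 225 and 182 CPM, and in KLRG1-negative libraries 1 and 3 Traf1 had 332 and 239.6 CPM. The labels do not say what a library number stands for.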
